A study of Mus musculus with 6 samples.

Results

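IMP1 (insulin-like growth factor 2 mRNA-binding protein 1, gene Igf2bp1) is an RNA-binding protein of fetal tissues, and 9 mRNAs that have been described as its cargo were followed here in adult mouse long-term haematopoietic stem cells (LT-HSCs). The members were the listed genes Actb, Srf, Btrc, Cdc34, Mitf, Ptgs2, Gli1, Mapk4 and Mapt, and all 9 were found by Entrez identifier among the 21761 genes of the count table. They were chosen as described targets of IMP1 binding, with earlier results of these data known. Control libraries came from Rosa26 +/+;Mx1-Cre tg/+ marrow and IMP1 libraries from Rosa26 I/+;Mx1-Cre tg/+ marrow, with 3 libraries in each group, described as biological replicates. In both groups donor marrow of the CD45.2 allotype was grown in lethally irradiated CD45.1/2 hosts, poly(I:C) was given to induce the Mx1-Cre transgene, and 200 cells with the phenotype CD45.2+ LSK CD150+ CD48- CD34- were sorted per library 8 weeks after the last injection. Mx1-Cre is driven by an interferon-responsive promoter and therefore acts in other cells than LT-HSCs as well. The hosts also carry the CD45.2 allotype, and the labels name no gate on CD45.1. The labels used here give neither age nor sex.

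IMP1 binds RNA through its KH domains at sites in coding and 3′ untranslated regions, and by this it can hold an mRNA in the cytoplasm, delay its translation, carry it to a part of the cell or shield it from decay and from microRNAs. It is best known from beta-actin mRNA, which it recognises at a short element called the zipcode. A count of reads measures the level of an mRNA, so a cargo whose translation or place in the cell changed while its level did not would show no difference here. Binding, translation and localisation were not measured in these libraries.

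The element for which the protein is known was read from the reference transcript Actb-201 (GENCODE M21, GRCm38, chromosome 5). It lies at bases 2 to 31 of the 3′ untranslated region, which begins after the stop codon, and capitals mark the 2 parts of the zipcode, CGGACT and ACACCC.
Actb zipcode: CGGACTgttactgagctgcgttttACACCC
The search asked for CGGACT followed by ACACCC at most 18 bases downstream on the transcript strand, a spacing set from the Actb element itself. Of 12063 tested genes with a complete coding transcript and a 3′ untranslated region in the reference, 4 held such a pair there (0.0332%). They were Actb, Socs3, Ube2l3 and Lrrc58, with Actb the single member among them.

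For the other members, IMP1 has been described in human cells to shield MITF mRNA from miR-340, and human CDC34 mRNA has been described as a target of let-7. These microRNAs were not measured. Their mature sequences (RefSeq, GRCm38.p6, chromosomes 11 and 9) are shown with the seed, bases 2 to 8, in capitals, followed by the mouse transcript stretch whose capitals are the complement of that seed.
mmu-miR-340-5p: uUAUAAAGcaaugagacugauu
Mitf-202 site: tcttcttcaggagaCTTTATAa
mmu-let-7g-5p: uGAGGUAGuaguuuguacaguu
Cdc34-201 site: cctcaggcgacagaCTACCTCa
The Mitf stretch (chromosome 6) spans bases 41 to 62 of its 3′ untranslated region, and CTTTATA occurs in that region of 13.9% of the 12063 genes. The Cdc34 stretch (chromosome 10) spans bases 54 to 75, and CTACCTC occurs in 9.28%. Of the other members, Ptgs2 held 1 CTTTATA in its 3′ untranslated region. The Mapt transcript that was read (Mapt-203) has 0 bases of 3′ untranslated region in the reference. That region of Mapt was therefore not searched for the zipcode or for either seed. Actb and Gli1 each held 1 CTACCTC in the coding part, where it occurs in 14.2% of the 12063 genes. Both searches read the transcript strand, and a match of these letters is a description, not a site in use.

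Library totals were 25749898 to 27338450 counts in Control and 50220629 to 67083116 in IMP1, on average 2.26 times as many. Depth and genotype therefore cannot be told apart between these groups. After thinning to the smallest library 0 of the tested members were called, as before thinning, which does not separate depth from genotype. The switched-on gene itself separated the groups. Igf2bp1 had 0, 0 and 1 counts in Control and 1870, 2084 and 2016 counts in IMP1 (29.4, 30.1 and 38.8 CPM, counts scaled to library size by the trimmed mean of M values, TMM), while Igf2bp2 and Igf2bp3 did not pass the test (adjusted p = 0.881 and 0.992, edgeR). All 11 LT-HSC markers that were checked averaged above 10 CPM, and their summed level was 1819 to 2076 CPM in Control and 2328 to 2665 CPM in IMP1. Cd34, whose protein the sort selected against, stood at 263 to 317 CPM in Control and 141 to 213 CPM in IMP1. Cd48, also selected against, was at 18.2, 1.86 and 2.84 CPM in Control and 26.9, 7.87 and 3.31 CPM in IMP1, highest in the libraries numbered 1. Markers of other cells were present at lower sums. The erythroid list (6 of its 7 genes in the table, all 6 with counts) summed to 35.3 to 42.8 CPM in Control and 69.6 to 305 CPM in IMP1, and the mast cell and basophil list (6 of 8 with counts, Mcpt4 and Gzmb at 0) to 36.1 to 44.9 against 2.45 to 14.8 CPM. The neutrophil and monocyte list (10 of 10 with counts) summed to 272 to 307 CPM in Control and 229 to 679 CPM in IMP1. Its genes moved in both directions. S100a8 was at 5.24 to 12.0 against 11.4 to 242 CPM, while Prtn3 was at 234 to 296 against 198 to 213 CPM. Mpo was at 0.360 to 25.3 against 0 to 0.0314 CPM. The T and NK cell list (5 of 7, Cd3g and Ncr1 at 0) summed to 4.04 to 7.29 against 12.8 to 37.7 CPM. Klrb1c held most of the IMP1 sum, at 0.277 to 5.56 CPM in Control and 11.8 to 34.1 CPM in IMP1. Cd3d and Cd8a overlapped between groups (log2 fold changes 0.22 and −0.34), and Cd4 had counts in IMP1 3 alone. Megakaryocyte markers (6 of 6) summed to 349 to 730 against 315 to 529 CPM, stromal markers (6 of 7, Pdgfra at 0) to 30.4 to 42.6 against 37.8 to 43.4 CPM and endothelial markers (4 of 5, Cdh5 at 0) to 102 to 124 against 97.5 to 109 CPM. Their part in the results was not tested.

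None of the described cargo mRNAs changed past the threshold in IMP1 LT-HSCs. Of the 9 members, 5 were expressed well enough to be tested (Actb, Btrc, Srf, Mitf and Cdc34) with at least 155 counts in every library, and the other 4 (Ptgs2, Gli1, Mapk4 and Mapt) had at most 5 counts in any library. By the quasi-likelihood test of edgeR over 12807 genes, 0 of 5 passed at an adjusted p of 0.05, where 0.211% of all genes did (27 genes, 0.0703% higher and 0.141% lower). Before adjustment, 0 of 5 members had a p under 0.05, where 14.3% of all genes passed, and at an adjusted p of 0.10, which 1.8% of all genes passed, they again counted 0. The groups overlapped for each of the 5, while they did not overlap for 21.9% of all genes. The log2 fold changes of the 5 were all above 0, as were 52.2% of all genes, and their median was 0.33 against 0.03 over all genes, with every 95% interval spanning 0.

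Other ways of fitting the same counts also called 0 of the 5 at an adjusted p of 0.05. The share of all genes called there was 6.39% by DESeq2, 0.0859% by limma-voom and 0.383% with the newer edgeR settings. It was 0.125% without scaling, 0.219% with RLE and 0.226% with upper-quartile scaling. It was 0.198% without a filter, 1.12% at a mean of at least 5 CPM, 0.247% after thinning, 0.102% with the length and GC trend removed and 0.0312% with a replicate block. Leaving out a library gave 0.015% without Control 1 or Control 2, 0% without Control 3 (where 12.2% had an unadjusted p under 0.05), 0.0155% without IMP1 1 or IMP1 3 and 0.0077% without IMP1 2.

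**Figure D1:**
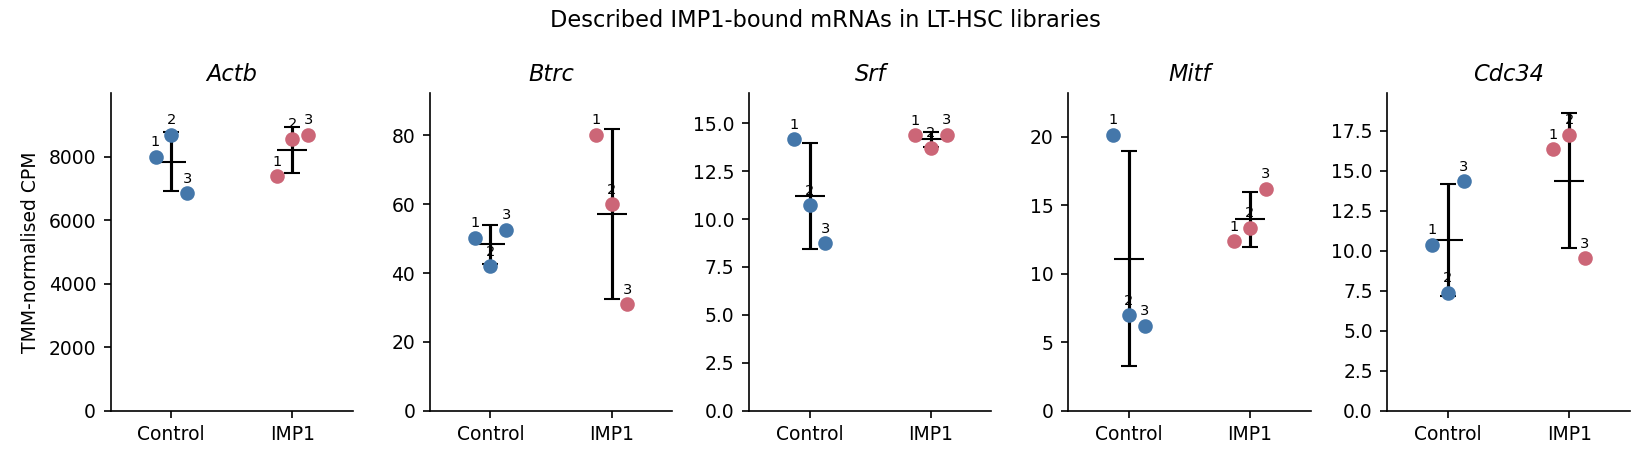
Level of each tested member in TMM-normalised CPM (vertical axis, from 0) in 3 Control (blue) and 3 IMP1 (red) libraries, numbered by replicate, with bars for the mean and SD. The groups overlap in every panel, and Actb spans 6852 to 8693 CPM in Control and 7385 to 8693 CPM in IMP1.

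Actb encodes beta-actin, the main cytoplasmic actin and the cargo by which IMP1 is best known. It was the gene with rank 2 by mean level in the table. Its level was 8004, 8693 and 6852 CPM in Control and 7385, 8576 and 8693 CPM in IMP1. The lowest value was that of Control 3 and the highest values of both groups were 8693 CPM, so the groups overlapped almost fully. The log2 fold change was 0.07 (SE 0.10, edgeR adjusted p = 0.818), with a 95% interval of −0.16 to 0.29, or 0.896 to 1.22 times the Control level. This interval was the narrowest of the 5. Without Control 3 the log2 fold change was −0.02 (adjusted p = 0.945), and leaving out the other libraries in turn gave 0.02 to 0.15. Actb has many processed pseudogenes and shares long stretches with other actins, so its count depends on how the authors' pipeline assigned shared reads.

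Srf encodes serum response factor, a transcription factor that binds the regulatory regions of Actb and other cytoskeletal genes. In human tumour cells IMP1 has been described to sustain SRF mRNA. Its level was 14.2, 10.7 and 8.73 CPM in Control and 14.4, 13.7 and 14.4 CPM in IMP1. The IMP1 libraries lay close together (coefficient of variation 2.73%), while the Control libraries spread (24.5%), and Control 1 reached into the IMP1 range. The log2 fold change was 0.34 (SE 0.36, edgeR adjusted p = 0.740, interval −0.50 to 1.17). It was 0.54 without Control 1 (adjusted p = 0.649) and 0.18 without Control 3, and it was not called in either.

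Among the ubiquitin genes, Btrc encodes beta-TrCP1, the substrate receptor of an SCF ubiquitin ligase that marks beta-catenin and IκB for destruction. IMP1 has been described to stabilise this mRNA. Its level was 50.3, 42.0 and 52.6 CPM in Control and 80.2, 60.0 and 31.0 CPM in IMP1. IMP1 1 and IMP1 2 lay above all Control libraries and IMP1 3 below them, so the coefficient of variation was 43.3% in IMP1 against 11.5% in Control. The log2 fold change was 0.24 (SE 0.33, edgeR adjusted p = 0.804, interval −0.52 to 1.00). It rested on single libraries, at −0.08 without IMP1 1, 0.15 without Control 2 and 0.54 without IMP1 3 (adjusted p = 0.943, 0.917 and 0.429).

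Cdc34 encodes a ubiquitin-conjugating enzyme that extends ubiquitin chains on substrates of SCF ligases. Its level was 10.4, 7.36 and 14.3 CPM in Control and 16.3, 17.2 and 9.54 CPM in IMP1. As for Btrc, IMP1 1 and IMP1 2 were above every Control library and IMP1 3 was not. The log2 fold change was 0.43, the largest of the 5 members, with a wide error (SE 0.43, edgeR adjusted p = 0.715, interval −0.56 to 1.42). Leaving out Control 3 or IMP1 3 raised it to 0.69 or 0.65 (adjusted p = 0.609 and 0.620), and leaving out Control 2 or IMP1 2 lowered it to 0.22 or 0.28 (adjusted p = 0.884 for both).

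Mitf encodes a basic helix-loop-helix factor of the MiT/TFE family that directs melanocyte and mast cell programmes. Its level was 20.1, 6.97 and 6.21 CPM in Control and 12.4, 13.4 and 16.2 CPM in IMP1. Control 1 was the highest of all 6 libraries and the other Control libraries were the lowest. The log2 fold change was 0.33 (SE 0.52, edgeR adjusted p = 0.832), and its interval of −0.87 to 1.54 was the widest of the 5. Without Control 1 the log2 fold change was 1.08 (unadjusted p = 0.0471, where 12.5% of all genes had a p under 0.05, and edgeR adjusted p = 0.399), and it was 0.08 without Control 2, 0.04 without Control 3 and 0.21 without IMP1 3 (adjusted p = 0.970, 0.987 and 0.940). Of the mast cell markers, Mcpt4 and Gzmb were at 0 counts, Tpsb2 did not exceed 0.0400 CPM in any library, and Fcer1a, a chain of the IgE receptor, was at 21.3 to 34.7 CPM in Control and 0 to 2.37 CPM in IMP1. The mast cell protease gene Cpa3 was at 7.74, 13.6 and 14.7 CPM in Control and 0.377, 14.7 and 2.45 CPM in IMP1. Mcpt8 and Ms4a2 had 36 and 29 counts in Control 1 and 0 in every other library, while Hdc had 44 counts in IMP1 1, 6 in IMP1 2 and 1 in Control 1. Fcer1a, Mcpt8 and Ms4a2 were thus highest in Control 1, as Mitf was. Cpa3 was highest in Control 3 and IMP1 2, and Hdc in IMP1 1. The part of mast cell transcripts in the Mitf level was not tested.

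**Figure D2:**
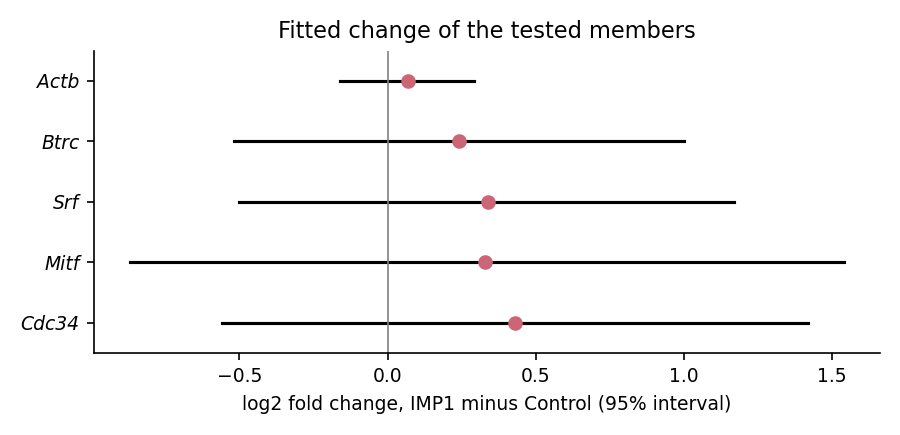
Fitted log2 fold change (points, IMP1 minus Control) of the 5 tested members with 95% intervals (lines). Each interval spans 0, from the narrow one of Actb (−0.16 to 0.29) to the wide one of Mitf (−0.87 to 1.54).

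The other 4 members could not be tested, since they did not pass the filter on low counts. Ptgs2, which encodes the inducible cyclooxygenase COX-2, had 0 counts in all 6 libraries, which allows at most 0.0390 CPM over the Control and 0.0162 CPM over the IMP1 libraries (3 counts, counting error only). Gli1, the transcription factor that reads out hedgehog signalling, had 0 counts in Control and 0, 0 and 1 in IMP1. Its span overlaps Arhgap9 in the reference, so without strand information even that count is uncertain. Mapk4 encodes the atypical kinase ERK4, whose mRNA translation IMP1 has been described to limit in human osteosarcoma cells. It had 1, 0 and 0 counts in Control and 2, 1 and 2 in IMP1, which is 2.08 times the Control rate (exact counting interval 0.233 to 98.3). Mapt encodes the microtubule-binding protein tau, whose mRNA IMP1 has been described to accompany in neurons. It had 0 counts in Control and 5, 0 and 0 in IMP1, all from IMP1 1, which at 0.0270 CPM over the group lies under the Control limit of 0.0390 CPM. For these 4 mRNAs a difference between the groups was not detectable at this depth.

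The members were also ranked by level per length, as CPM per kilobase of the reference transcript with the longest coding part. In Control, Actb stood at 4090 CPM per kilobase, Btrc at 16.2 ± 1.86, Cdc34 at 8.44 ± 2.76, Srf at 4.28 ± 1.05 and Mitf at 2.27 ± 1.60 (SD, n = 3). The ranges of neighbours in this order overlapped for Srf (3.34 to 5.41) and Mitf (1.27 to 4.13), but not for Btrc (14.1 to 17.6) and Cdc34 (5.81 to 11.3) or for Cdc34 and Srf. The gap between Btrc and Cdc34 depends on the Btrc transcript used (2978 bases). Per kilobase of its longest transcript (4720 bases), Btrc averaged 10.2 CPM in Control, inside the Cdc34 range. In IMP1 the order was the same, with 4280, 19.2, 11.4, 5.41 and 2.86 CPM per kilobase, but Btrc (10.4 to 26.9) and Cdc34 (7.53 to 13.6) overlapped. Igf2bp1 itself averaged 3.91 CPM per kilobase of its longest reference transcript (8378 bases) in IMP1. This length rule is not that of the members' order. The length of the transcript made from the Rosa26 I allele is not given in the sources used here. Igf2bp1 was therefore not placed in the members' order.

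As a description of shape only, the gene whose log2 CPM followed each member most closely over the 6 libraries was sought among 10167 genes averaging at least 5 CPM. It was Taok2 for Actb (Pearson's r = 0.988), Tpm1 for Btrc (0.983), Pwwp3b for Srf (0.994), Fam91a1 for Mitf (0.980) and Ncoa6 for Cdc34 (0.989). Each member had between 40 and 107 genes above an r of 0.9, and all points share the same libraries and their depth difference. Tpm1, a tropomyosin gene, was like Btrc highest in IMP1 1 (85.2 CPM) and lowest in IMP1 3 (37.6 CPM).

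The genes around the members were followed in 9 lists, which hold 201 genes besides the members, 159 of them tested. By edgeR, 0 of the 159 passed at an adjusted p of 0.05. Without adjustment, 13 had a p under 0.05 with a higher and 18 with a lower level (19.5%), where all genes gave 14.3% (6.67% higher and 7.63% lower), and their median log2 fold change was −0.00. DESeq2 called 14 of these genes, where it called 6.39% of 13748 genes, and limma-voom called 0.

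**Figure D3:**
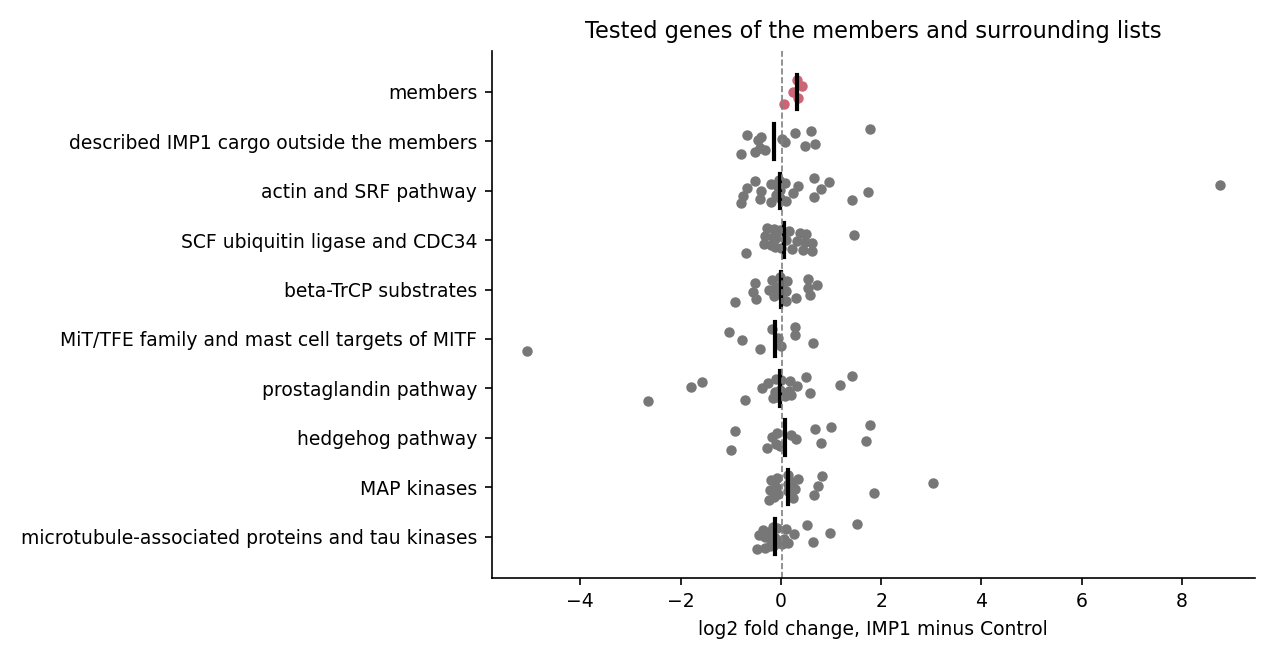
Log2 fold change (horizontal axis, IMP1 minus Control) of each tested gene of the members (red) and of the 9 surrounding lists (grey), with list medians as black bars and the median of all genes as a dashed line at 0.03. List medians lie between −0.14 and 0.15 and the members' median at 0.33.

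Around Actb and Srf, the actin list had 24 of 29 genes tested, of which 11 were positive, with a median of −0.02. Before adjustment, 9 genes had a p under 0.05, 7 with a lower and 2 with a higher level, where 7.63% and 6.67% of all genes did. The 2 higher, outside the naming rule and chosen after their values were seen, were the immediate-early gene Fos, a textbook SRF target, at 0, 4 and 0 counts in Control and 301, 4603 and 23 counts in IMP1 (edgeR adjusted p = 0.122), and the survival gene Mcl1 at 63.7 ± 9.43 against 101 ± 23.8 CPM (0.66, adjusted p = 0.229). The Fos level rested mainly on IMP1 2. Tagln2, which encodes the actin-bundling protein transgelin 2, was at 1033, 1050 and 1037 CPM in Control and 737, 604 and 605 CPM in IMP1 (−0.68, edgeR adjusted p = 0.0510). This missed the threshold, while Tagln2 passed in 7 of the 17 alternative analyses, among them DESeq2 (adjusted p = 7.29e-08), and its log2 fold change was negative in all 17. Actg1, the gene of the other cytoplasmic actin, was at 2616, 2751 and 2490 CPM in Control and 1802, 1617 and 2045 CPM in IMP1 (−0.52, edgeR adjusted p = 0.0750, and 0.000151 by DESeq2). Its groups did not overlap and its sign was negative in all 17 alternatives. Pfn1, which encodes the actin-monomer binder profilin 1, had a log2 fold change of −0.19 (adjusted p = 0.342). Mrtfa, outside the naming rule and chosen after its values were seen, encodes a coactivator of SRF and stood at 25.1 ± 5.11 against 14.5 ± 2.94 CPM (adjusted p = 0.317), and Mrtfb at 92.3 ± 9.50 against 91.1 ± 19.6 CPM.

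The ratio of Actb to Actg1 within each library, computed after both values were seen, was 3.06, 3.16 and 2.75 in Control and 4.10, 5.30 and 4.25 in IMP1. Every IMP1 library lay above every Control library, with means of 2.99 ± 0.213 and 4.55 ± 0.656 (SD, n = 3). The ratio is given as a description with no test, since the pair was chosen for it, and neither Actb nor Actg1 passed by edgeR. Sharing of reads between both actins and their pseudogenes was not tested.

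**Figure D4:**
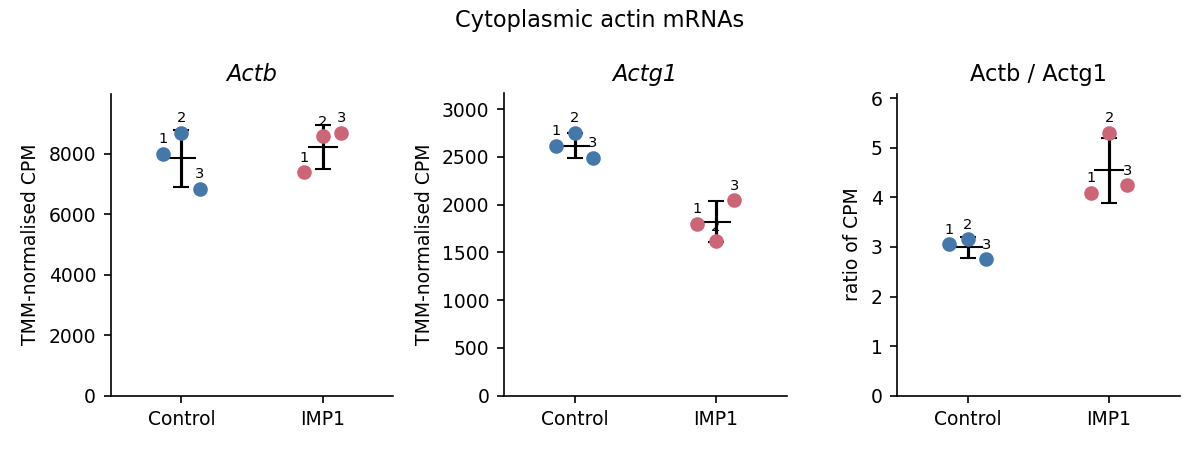
Level of Actb and Actg1 (TMM-normalised CPM) and their ratio in 3 Control (blue) and 3 IMP1 (red) libraries, numbered by replicate, with mean and SD. Actb overlaps between groups, while Actg1 is at 2490 CPM or more in Control and 2045 CPM or less in IMP1, and the ratio is at least 4.10 in IMP1 and at most 3.16 in Control.

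Around Btrc and Cdc34, all 22 genes of the SCF ligase list were tested, 12 of them positive, with a median of 0.06, and 4 higher and 3 lower genes had a p under 0.05 before adjustment (6.67% and 7.63% of all genes). The adaptor gene Skp1 was at 688 ± 69.1 against 801 ± 93.2 CPM (adjusted p = 0.456). Skp2, the gene of another substrate receptor, was at 13.7, 9.70 and 15.3 CPM in Control and 52.6, 27.6 and 25.8 CPM in IMP1 (1.46, edgeR adjusted p = 0.136, and 0.00622 by DESeq2). Its groups did not overlap. Cand1, which encodes the factor that exchanges substrate receptors on the ligase, was at 86.7 ± 1.30 against 133 ± 24.8 CPM (0.62, adjusted p = 0.156). Ube2d3, an abundant ubiquitin-conjugating enzyme gene, did not differ beyond the spread (adjusted p = 0.804). The closest paralogues of the members, named outside the rule, had nearly equal levels in both groups. Fbxw11, which encodes beta-TrCP2, was at 46.9 ± 4.73 against 46.3 ± 6.61 CPM and Ube2r2, the paralogue of Cdc34, at 90.2 ± 8.89 against 91.0 ± 9.79 CPM (log2 fold changes −0.02 and 0.01, adjusted p = 0.981 and 0.982).

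Of 20 beta-TrCP substrates 19 were tested and 10 were positive, with a median of 0.00. Ctnnb1, the gene of beta-catenin, was at 178, 175 and 221 CPM in Control and 260, 304 and 269 CPM in IMP1 (0.54, edgeR adjusted p = 0.126, and 0.00595 by DESeq2), without overlap between groups. Nfkb1, whose protein precursor is processed after beta-TrCP binding, was at 174 ± 15.2 against 122 ± 24.4 CPM (−0.52, adjusted p = 0.247), and the translation inhibitor gene Pdcd4 at 532 ± 141 against 495 ± 63.4 CPM. Counts of mRNA do not report the turnover of these proteins.

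Around Mitf, 10 of the 20 genes found for the MiT/TFE and mast cell list were tested, with a median of −0.12 and, before adjustment, 0 higher and 1 lower gene at a p under 0.05. The 1 lower gene was Fcer1a (−5.07, edgeR adjusted p = 0.247), which passed without IMP1 1 and with the newer edgeR settings. Kit, the stem cell factor receptor gene, was at 415 ± 54.2 against 505 ± 90.8 CPM (adjusted p = 0.457), and Gata2, a transcription factor gene of stem and mast cells, at 435 ± 22.7 against 418 ± 53.6 CPM (adjusted p = 0.879). Among the family relatives, named outside the rule, Tfec stood at 74.2 ± 13.7 against 55.6 ± 24.0 CPM, above Mitf, with adjusted p = 0.605.

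For the members that were not detected, parts of their pathways were present. In the prostaglandin list around Ptgs2, 21 of 27 genes were tested, 9 of them positive, with a median of −0.02. Ptgs1, which encodes the constitutive cyclooxygenase and was named outside the rule, was at 73.9 ± 16.7 against 83.2 ± 5.33 CPM (adjusted p = 0.765). The prostaglandin E synthase genes Ptges and Ptges2, also named outside the rule, were low. Ptges was at 2.18 ± 1.60 against 4.90 ± 0.868 CPM and Ptges2 at 6.85 ± 5.09 against 5.30 ± 2.10 CPM. The most abundant genes were Ptges3, named prostaglandin E synthase 3 (1545 ± 78.4 against 1424 ± 88.6 CPM), and Alox5ap, a cofactor of leukotriene synthesis (534 ± 45.7 against 506 ± 20.0 CPM). Neither of these 2 passed (adjusted p = 0.552 and 0.770). The thromboxane receptor gene Tbxa2r (26.6 ± 7.21 against 8.87 ± 5.90 CPM, adjusted p = 0.287) and the leukotriene C4 synthase gene Ltc4s (6.44 ± 3.41 against 1.85 ± 0.741 CPM, adjusted p = 0.312) had the lowest p and did not pass either.

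In the hedgehog list around Gli1, 14 of 23 genes were tested and 7 were positive, with a median of 0.09. The receptor gene Ptch1 was at 19.2, 23.1 and 14.7 CPM in Control and 39.8, 34.4 and 17.2 CPM in IMP1 (0.68, adjusted p = 0.468), with overlap through IMP1 3. Ccnd1, the gene of cyclin D1, was at 3.93 ± 0.275 against 13.5 ± 4.91 CPM (1.78, edgeR adjusted p = 0.154, and 0.00676 by DESeq2), without overlap. Neither Csnk1a1 nor Mycn, the most abundant genes of the list, passed (adjusted p = 0.607 and 0.539). Smo, the signal transducer named outside the rule, was at 21.9 ± 8.64 against 21.6 ± 5.84 CPM. Hedgehog ligands were nearly absent, with 5 counts of Shh over the Control libraries and 0 over the IMP1 libraries, and 0 and 1 of Ihh. Dhh had 0, 10 and 10 counts in Control and 0, 0 and 83 in IMP1, all of the latter from IMP1 3.

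Among MAP kinase genes around Mapk4, 19 of 23 were tested and 12 were positive, with a median of 0.15. Map2k1, which encodes the kinase MEK1, was at 36.0, 40.2 and 29.9 CPM in Control and 69.4, 55.3 and 63.3 CPM in IMP1 (0.83, edgeR adjusted p = 0.134, and 0.00513 by DESeq2), without overlap between groups. Mapk12 was at 3.84 ± 3.83 against 13.9 ± 4.95 CPM (1.85, adjusted p = 0.410), and the abundant p38 kinase gene Mapk14 did not pass (adjusted p = 0.427). Mapk6, the paralogue of Mapk4, was detected at 36.6 ± 18.1 against 34.9 ± 18.6 CPM (named outside the rule, adjusted p = 0.968).

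In the microtubule list around Mapt, 21 of 26 genes were tested and 9 were positive, with a median of −0.12. Map1lc3b, which encodes the autophagosome protein LC3B, was at 1060, 1210 and 1192 CPM in Control and 760, 933 and 853 CPM in IMP1 (−0.44, edgeR adjusted p = 0.104, and 0.00299 by DESeq2), without overlap. Map9 was at 7.92 ± 3.12 against 22.7 ± 3.64 CPM (1.52, adjusted p = 0.145). The tubulin gene Tubb5 was at 1761 ± 157 against 1832 ± 92.3 CPM (adjusted p = 0.820) and the tubulin-sequestering gene Stmn1 at 1423 ± 112 against 1119 ± 93.0 CPM (adjusted p = 0.156). Neuronal markers were near 0, with a summed level of 0.317 to 1.24 CPM in Control and 0.487 to 0.597 CPM in IMP1, and Nefl and Nefm at 0 counts.

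A further list held 17 mRNAs described as IMP1 cargo outside the 9 members, of which 14 were tested. By edgeR 0 passed at an adjusted p of 0.05, 7 were positive, the median was −0.14, and before adjustment 4 higher and 3 lower genes had a p under 0.05, where 6.67% of all genes did with a higher and 7.63% with a lower level. The lower ones were the growth regulator gene Myc (382 ± 16.0 against 222 ± 43.1 CPM, −0.79, edgeR adjusted p = 0.0760, and 5.35e-05 by DESeq2), Actg1 and the elongation factor gene Eef2 (1110 ± 216 against 814 ± 49.2 CPM, edgeR adjusted p = 0.208, and 0.0409 by DESeq2). The higher ones, named outside the rule except Ccnd1, were Ccnd1, Ccnd2 (396 ± 33.5 against 481 ± 31.0 CPM, adjusted p = 0.282), the chromatin gene Hmga2 (28.1 ± 6.10 against 42.5 ± 6.87 CPM, adjusted p = 0.347) and the receptor gene Igf1r (80.5 ± 11.2 against 113 ± 10.9 CPM, adjusted p = 0.247). Igf2, H19 and Lin28b did not pass the filter and were not tested. Igf2 had 3 counts over the Control and 1 over the IMP1 libraries. H19 had 0 counts in Control and 0, 201 and 75 in IMP1, and Lin28b 0 in Control and 0, 5 and 51 in IMP1.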

How the data were processed

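Per the file headers, the table the authors deposited holds whole-number counts for Entrez genes in 1 column per library, all matched. The submitters' processing notes name TopHat2 2.0.10 and build mm9 without their role. The counter, strand setting and annotation are not given in the sources used here. Symbols came from a RefSeq table (GRCm38.p6) that matched 21615 identifiers. The other 146 held 0.0645% of counts. Because builds differ, no genome coordinates are printed.

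The counts were fitted with the quasi-likelihood test of edgeR 4.0.16 (R 4.3.3), with TMM scaling, filterByExpr, genotype as the only term and Benjamini-Hochberg adjustment over 12807 genes. SE is the absolute log2 fold change over the square root of F, and intervals are 95%. Alternatives included DESeq2 1.42.0 and limma-voom 3.58.1. On simulated counts for this comparison (12596 genes), 36 of 100 genes changed by 1 log2 unit and 86 of 100 changed by 3 were recovered. There 8 of 130 calls were false. The simulation gave each gene the spread typical of its level, so it does not give the recovery of genes that spread more. Amplified reads carry no molecular identifiers, so limits from counts cover counting error only.

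Members and lists were chosen with earlier results of these data known. Named genes were the members, the Igf2bp family and, per list, genes past the threshold, the 2 of lowest p and the 2 most abundant. One gene named by this rule and 1 marker list are not reported here. No libraries were duplicates (chi-square per degree of freedom at least 61.0).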

Additional observations from a re-analysis of the deposited data

How the results depend on the processing

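No member was called under any of the 17 alternatives that change the fit or the libraries, nor at an adjusted p of 0.10. Srf, Mitf and Cdc34 kept a positive sign in all 17, with log2 fold changes of 0.18 to 0.54, 0.04 to 1.08 and 0.22 to 0.69. Actb reversed to −0.02 without Control replicate 3 and Btrc to −0.08 without IMP1 replicate 1, and leaving out each library in turn gave −0.02 to 0.15 for Actb and −0.08 to 0.54 for Btrc. Removal of the length and GC trend gave 0.22 for Actb and 0.05 for Btrc. Scaling by library total alone moved the median of all genes from 0.03 to 0.12 and gave 0.16 for Actb.

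The count over all genes (27) was 49 with the newer edgeR settings, 879 with DESeq2, 11 with limma-voom, 16 without scaling, 114 at a mean of at least 5 CPM, 13 with the trend removed and 231 at an adjusted p of 0.10. Leaving out 1 library gave 0 to 2 (0 without Control 3, where 1627 genes, 12.2%, had an unadjusted p under 0.05). The surrounding genes (0 called) gave 14 calls with DESeq2 and 4 at a mean of at least 5 CPM (Tagln2, Actg1, Myc and Cnn2, all lower). They gave 2 with the newer edgeR settings (Fcer1a and Tagln2, lower), and 1 with RLE scaling, upper-quartile scaling, no filter or thinning (Tagln2), and 0 to 1 when a library was left out (Fcer1a, without IMP1 1). The cause was not tested. With the replicate number as a block, 4 genes and 0 members were called, and the members' log2 fold changes were 0.07 to 0.55. Deviations of same-numbered libraries correlated at −0.008 to 0.031, so no pairing by number was seen over all genes. Whether same-numbered libraries shared a donor or sorting day was not tested.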
